A study of Homo sapiens with 24 samples.

Results

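The transcript response of A549 cells to interferon beta (IFN) was compared between 12 h and 8 h of stimulation in cells that carried a control siRNA. A549 is a human cell line from a lung adenocarcinoma. The cells had received an siRNA against firefly luciferase (siFLuc), an insect gene absent from the human genome, for 48 h, and then IFN at 1000 U/mL. The comparison holds 6 of the 24 libraries of the series: the 3 columns of siFLuc cells with IFN for 12 h and the 3 with IFN for 8 h, chosen by their column names. Both groups share the cell line, the control siRNA and the IFN dose, and they differ in the time with IFN. Beside them stand the siFLuc cells with a mock treatment for 8 h and for 12 h, and the cells with an siRNA pool against BOP1, a factor needed to make the large ribosomal subunit, with IFN for 8 h and for 12 h, each with 3 libraries. The series title names ribosome biogenesis and how mRNAs rich in non-optimal codons are translated in the IFN response. The libraries hold polyadenylated RNA and no measure of translation. The deposited values are TPM, transcript abundance per length scaled so that each library has the same total, so a level is a share of that total.

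IFN beta binds a receptor made of the IFNAR1 and IFNAR2 chains. The receptor's kinases JAK1 and TYK2 phosphorylate STAT proteins, which join IRF9 to form ISGF3, a complex that binds a promoter element called the interferon-stimulated response element (ISRE). The genes switched on this way, the interferon-stimulated genes (ISGs), include antiviral effectors, the HLA class I antigen presentation machinery, chemokines, and inhibitors such as USP18 and SOCS1 that limit the signal. Early ISGs are known to rise within hours, while others build up later or stay high after receptor signalling has faded.

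Between 13844 and 14373 genes reached 1 TPM in each of the 6 libraries, mitochondrial genes held 11.5% to 13.7% of TPM, and the 10 highest genes held 12.3% to 13.8%. Sequencing depth is unknown. The columns of each group are numbered 1, 2 and 4, whereas the labels number replicates up to 3, so the libraries numbered 4 were used by group alone. At 12 h with IFN the library numbered 4 stood apart: Pearson r across genes of log2(TPM + 1) was 0.985 between the libraries numbered 1 and 2, and 0.975 and 0.972 for each of these against number 4. At 8 h the values were 0.978 to 0.981. Each test below was also run without the libraries numbered 4. Of 10 epithelial and A549 markers all were present at 1 TPM or more, with a summed level of 15414 to 17015 TPM in the 6 libraries. Summed levels of 6 fibroblast markers were 5.92 to 14.0 TPM and of 7 leukocyte markers 2.35 to 3.29 TPM, with 3 of the leukocyte markers at 0 in all 6 libraries. Nothing in the labels says whether the libraries of a group came from separate cultures, so the p-values measure the spread between these libraries, which may be technical.

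Between 8 h and 12 h of IFN, 455 genes rose and 112 fell (limma on log2(TPM + 1), adjusted p under 0.05), which is 2.83% and 0.697% of the 16062 genes tested. The changes were mostly small: 41 of the rises and 15 of the falls reached 1 on the log2 scale. The median of all genes was 0.09. The 12 h libraries lay entirely above the 8 h libraries for 2685 genes (16.7%) and entirely below for 993 (6.18%). These shares are the background for each remark below that groups did not overlap. On numbers 1 and 2 alone, 510 genes rose and 276 fell (3.18% and 1.72%), and 257 of the rises and 83 of the falls were called in both fits. All 455 rises and all 112 falls kept their direction there. In mock-treated siFLuc cells 19 genes rose and 2 fell over the same interval (0.118% and 0.0125%), or 144 and 119 without the libraries numbered 4 (0.897% and 0.741%).

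Rises were 80.2% of the calls as deposited, but median-of-ratios rescaling gave 332 rises and 326 falls (50.5% rises) and quantile normalization 261 and 268 (49.3%). A fit of these 6 libraries alone, without the spread shared with the other 18, called 1 rise and 3 falls, of which HSPA1A and HSPA1B are named below. Leaving out the 12 h library numbered 1, 2 or 4 gave 300, 258 and 171 rises with 58, 46 and 56 falls, and leaving out the 8 h library numbered 1, 2 or 4 gave 507, 129 and 170 rises with 88, 48 and 34 falls.

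The antiviral effectors had a median change near 0. Of 56 effectors tested, 1 rose and 0 fell, beside 2.83% and 0.697% of all genes. The median change of the effectors was 0.00054 on the log2 scale against 0.09 over all genes, with 28 of 56 above 0. Under median-of-ratios rescaling that median was -0.11. Their summed level was 18838, 17601 and 16047 TPM at 8 h in the libraries numbered 1, 2 and 4, and 21172, 21536 and 15877 TPM at 12 h, against 660 to 775 TPM in the 6 mock libraries. The times overlapped, with the 12 h library numbered 4 the lowest of the 6. In bulk RNA, fewer responding cells and less RNA per cell cannot be told apart.

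IFIT1, which binds RNA that lacks the host's cap methylation, shows the pattern. It was at 1199, 1305 and 1123 TPM at 8 h (1209 ± 91.7, SD, n = 3) and at 1242, 1306 and 553 TPM at 12 h (1034 ± 417, SD, n = 3), in the order of the column numbers 1, 2 and 4, and between 0.676 and 3.81 TPM in mock cells. The 12 h libraries numbered 1 and 2 lay close to the 8 h values and number 4 lay far below them. The log2 difference was -0.32 (SE 0.34, adjusted p = 0.639), and 0.03 (adjusted p = 0.954) without the libraries numbered 4. IFIT3 likewise was at 0.15 (adjusted p = 0.48) without them and at -0.19 (adjusted p = 0.745) with them, and OAS1, which makes the 2'-5' oligoadenylates that activate RNase L, at 0.08 (adjusted p = 0.543) and -0.01 (adjusted p = 0.982).

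Other effectors spread to both sides of 0. IFI27, a mitochondrial ISG, was at 508, 524 and 525 TPM at 8 h and at 907, 1010 and 702 TPM at 12 h, with no overlap of the groups and a log2 difference of 0.73 (SE 0.28) that missed the threshold (adjusted p = 0.153). IFI6 had a difference of 0.39 (adjusted p = 0.205) and OAS2 one of 0.34 (adjusted p = 0.217), again with groups that did not overlap. ISG15, the ubiquitin-like modifier, had 1624, 1523 and 1331 TPM at 8 h and 2049, 2181 and 1362 TPM at 12 h (adjusted p = 0.52). RSAD2, which makes a chain-terminating nucleotide, had a difference of -0.41 (adjusted p = 0.199), MX1, a GTPase that blocks viral ribonucleoproteins, -0.11 (adjusted p = 0.798), and IFI44L -0.14 (adjusted p = 0.669).

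The effector that rose was LY6E, a surface protein that restricts coronavirus entry. It went from 363, 322 and 365 TPM to 519, 544 and 458 TPM, with a log2 difference of 0.53 (SE 0.13, adjusted p = 0.031), and its call held in 2 of 6 fits that left out 1 library. The LY6E call was lost after median-of-ratios rescaling and in the fit of the 6 libraries alone. Leaving out the libraries numbered 4, 6 of the 56 effectors rose and 2 fell, beside 3.18% and 1.72% of all genes. The rises, chosen for naming after their values were seen, were IFITM2 (0.54), IFITM3 (0.47), ISG20 (0.44), SLFN5 (0.57), LAMP3 (0.69) and LY6E (0.63), each a log2 difference with adjusted p between 0.000693 and 0.0272. The falls were EIF2AK2, the RNA-sensing kinase PKR, at -0.38 (adjusted p = 0.0476) and PARP14 at -0.45 (adjusted p = 0.0277). Of 30 genes linked to the prolonged phase of the response, 0 rose and 0 fell (median 0.02, or -0.09 after median-of-ratios rescaling), and without the libraries numbered 4 the list held 1 rise, LAMP3, and 1 fall, EIF2AK2.

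The signalling machinery showed no called change. Of 8 genes for receptor chains, kinases, STATs and IRF9, 0 rose and 0 fell, with a median of 0.29 and 8 of 8 above 0. STAT2 was at 185, 157 and 126 TPM at 8 h and 174, 181 and 157 TPM at 12 h, with overlapping groups and a log2 difference of 0.14 (adjusted p = 0.657). IRF9 was level to within its spread, with a difference of 0.003 (SE 0.21), which was below 0 after median-of-ratios rescaling, without mitochondrial genes and without the libraries numbered 4. Among 11 inhibitors of the pathway tested, 0 passed in either direction. USP18, which displaces JAK1 from the receptor, was at 222, 217 and 244 TPM at 8 h and 179, 167 and 186 TPM at 12 h, and the groups did not overlap, but the difference of -0.36 (SE 0.13) had an adjusted p of 0.114. After median-of-ratios rescaling USP18 was called lower (-0.47, adjusted p = 0.0351), as it was with a block on the column number (adjusted p = 0.0337). SOCS1 and SOCS3, inhibitors of JAK kinases, had differences of 0.05 (adjusted p = 0.957, below 0 after either rescaling) and 0.49 (adjusted p = 0.638). SOCS3 was at 83.4 TPM in the 12 h library numbered 4 and at 35.7 and 32.2 TPM in numbers 1 and 2. IRF5, a transcription factor of innate immunity, rose from 5.57, 5.31 and 4.95 TPM to 7.58, 7.48 and 13.7 TPM (log2 difference 0.70, adjusted p = 0.0322), with an adjusted p of 0.173 without the libraries numbered 4. Of the 5 factors of that list tested IRF5 was the 1 called, beside 2.83% of all genes. IRF1 (0.25, SE 0.29, adjusted p = 0.679) and IRF7 (0.03, adjusted p = 0.938, and -0.04 without the libraries numbered 4) were not called. The IRF1 groups did not overlap. In mock cells at 12 h IRF1 was at 113 TPM in number 4 and at 31.4 and 33.3 TPM in numbers 1 and 2, and this spread enters its SE.

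The promoters of 4 genes are printed because they hold the element that ISGF3 binds and stand for both kinds of behaviour seen here: IFIT1 and ISG15, which were not called between the times, and B2M and CXCL10, which rose. Each is the RefSeq window of GRCh38.p14 from 250 bases before the gene's start to 50 after it, 5' to 3' on the gene's strand. Capitals mark the ISRE core, which was searched as GAAA, any 2 bases, GAAA, on both strands. Matches that overlap form 1 run of capitals. In IFIT1 both matches lie on the opposite strand and therefore read as TTTC runs.
IFIT1 (chr10:89392373-89392672, plus strand): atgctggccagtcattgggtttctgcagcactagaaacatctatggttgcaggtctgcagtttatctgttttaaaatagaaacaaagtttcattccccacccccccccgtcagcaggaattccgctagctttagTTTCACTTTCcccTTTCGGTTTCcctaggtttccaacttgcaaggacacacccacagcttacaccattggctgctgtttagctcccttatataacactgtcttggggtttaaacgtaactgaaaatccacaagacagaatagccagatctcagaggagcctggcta
ISG15 (chr1:1013247-1013546, plus strand): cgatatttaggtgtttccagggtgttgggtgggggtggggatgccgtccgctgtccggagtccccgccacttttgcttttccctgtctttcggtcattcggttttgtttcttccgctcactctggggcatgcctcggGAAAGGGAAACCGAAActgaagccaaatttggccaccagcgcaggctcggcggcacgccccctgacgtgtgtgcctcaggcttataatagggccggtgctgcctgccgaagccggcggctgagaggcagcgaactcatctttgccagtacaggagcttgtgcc
B2M (chr15:44711267-44711566, plus strand): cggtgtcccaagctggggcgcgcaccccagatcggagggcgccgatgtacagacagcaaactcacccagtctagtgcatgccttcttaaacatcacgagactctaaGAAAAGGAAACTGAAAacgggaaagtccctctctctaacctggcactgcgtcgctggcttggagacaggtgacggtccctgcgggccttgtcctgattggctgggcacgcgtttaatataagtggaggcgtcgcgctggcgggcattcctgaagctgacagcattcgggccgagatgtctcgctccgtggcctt
CXCL10 (chr4:76023448-76023747, minus strand): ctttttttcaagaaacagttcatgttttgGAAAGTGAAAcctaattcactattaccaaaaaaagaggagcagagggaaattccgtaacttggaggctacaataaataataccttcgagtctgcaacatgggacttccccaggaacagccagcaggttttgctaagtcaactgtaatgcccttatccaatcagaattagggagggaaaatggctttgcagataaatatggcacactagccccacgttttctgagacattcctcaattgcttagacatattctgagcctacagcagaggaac
The cores of IFIT1 begin 116 and 103 bases before the start, those of ISG15 113 and 107, those of B2M 144 and 138, and the core of CXCL10 221 bases before it. The core was present in 4.38% of the 27305 windows of all genes, in 30 of 42 effectors with a window (71.4%) and in 11 of 16 antigen presentation genes (68.8%). Among all genes that rose it was present in 16 of 358 (4.47%), and among those that fell in 6 of 74 (8.11%). The GAS core, TTC, any 3 bases and GAA, the letters that STAT dimers bind, searched on both strands, was in 9.38% of all windows and in 25 of 358 windows (6.98%) of the genes that rose. The 2 motifs can share bases, and a match describes the letters, not a bound site.

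HLA class I genes and their partners were higher at 12 h. Of 20 antigen presentation genes tested, 6 rose and 0 fell, beside 2.83% and 0.697% of all genes. Their median change was 0.27 against 0.09 over all genes. Of the 20, 19 were above 0, as were 10095 of all 16062 genes. In numbers 1 and 2 alone, 9 rose and 0 fell (median 0.33), beside 3.18% and 1.72% of all genes. The summed level of the 20 genes was 7470, 7481 and 7080 TPM at 8 h and 9908, 10139 and 8439 TPM at 12 h. All 12 h libraries thus exceeded all 8 h libraries. In mock cells the sums were 2250 to 2417 TPM at 8 h and 2386 to 2473 TPM at 12 h, and 0 of the 20 genes were called. The mock median was 0.18 with 16 of 20 above 0. In numbers 1 and 2 alone it was 0.15 with 14 of 20 above 0 and 2 rises, beside 0.897% of all genes.

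B2M (ENSG00000166710.20, chromosome 15, 44711487 to 44718877, plus strand, GENCODE 29 on GRCh38), the light chain shared by all class I molecules, was at 2646, 3191 and 2988 TPM at 8 h (2942 ± 276, SD, n = 3) and 4116, 4164 and 3464 TPM at 12 h (3915 ± 391, SD, n = 3). The groups did not overlap. Its log2 difference was 0.41 (SE 0.08, adjusted p = 0.00695), called in 6 of 6 fits that left out 1 library, and -0.06 in mock cells. After median-of-ratios rescaling it did not pass the threshold. HLA-B, a heavy chain that presents peptides to CD8 T cells, was at 394, 361 and 314 TPM at 8 h and 664, 660 and 526 TPM at 12 h (0.79, SE 0.21, adjusted p = 0.0437), but leaving out any 1 of the 6 libraries ended its call (adjusted p 0.0504 to 0.161). HLA-C (0.49, adjusted p = 0.0421) and PSME2, a subunit of the proteasome activator PA28 (0.27, adjusted p = 0.0413), held in 2 of 6 such fits, and CALR, the chaperone calreticulin of the peptide-loading complex (0.30, adjusted p = 0.0157), in 4 of 6. HLA genes are close copies of each other and vary between cell lines, so how reads were divided among them is uncertain.

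Not every part of the machinery moved. TAP1, a chain of the peptide transporter, was at 357, 313 and 302 TPM at 8 h and 344, 355 and 291 TPM at 12 h (log2 difference 0.02, adjusted p = 0.937). PSMB8, an immunoproteasome subunit, had a difference of 0.13 (adjusted p = 0.438), and NLRC5, the transactivator of class I genes, one of -0.08 (adjusted p = 0.881). The test of whether the change under IFN differed from the change under mock gave an adjusted p of 0.742 for B2M. Without the libraries numbered 4 it gave 0.0752, with a difference of 0.65 between the log2 changes.

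**Figure D1:**
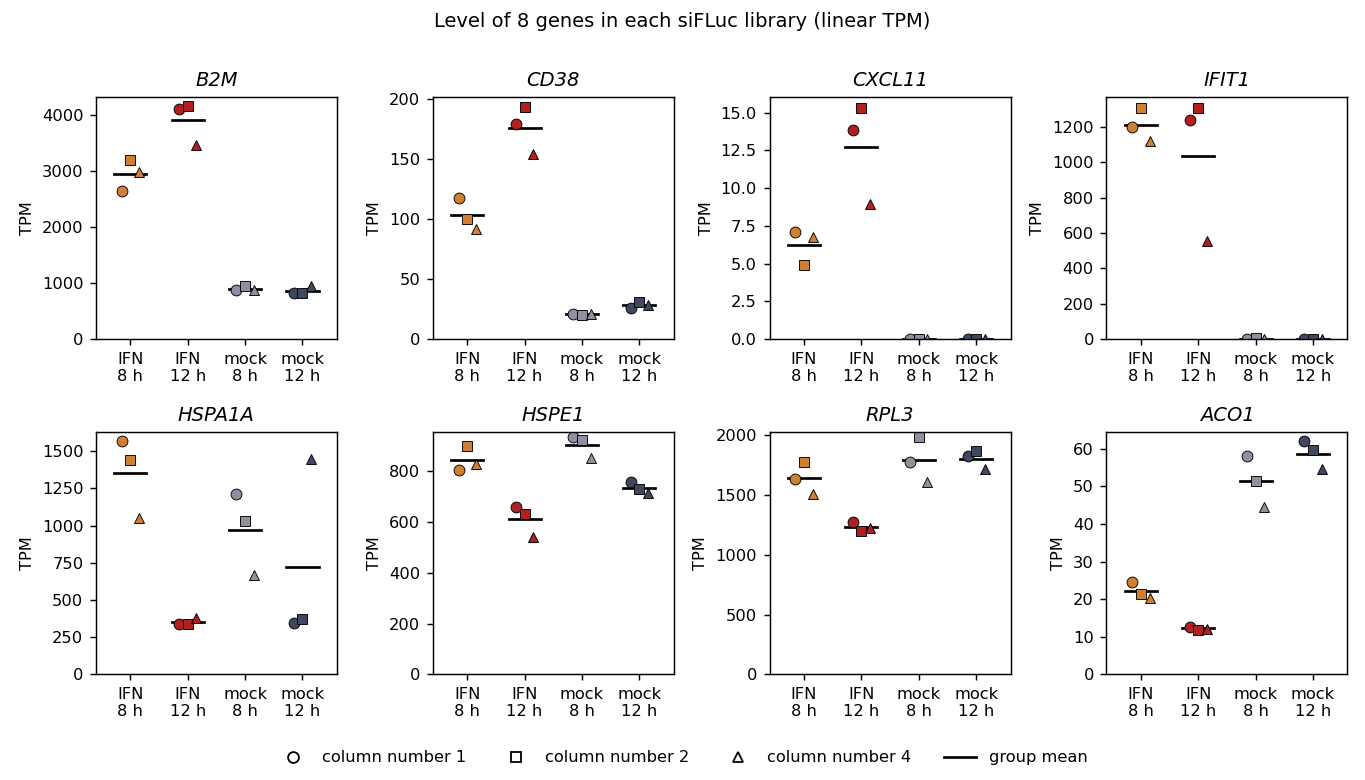
Level in TPM (linear axis) of 8 genes in every siFLuc library, by treatment and time. Points are libraries, shaped by column number, and lines are group means. B2M, CD38 and CXCL11 sit higher at 12 h of IFN. IFIT1 overlaps between the times, even without its low 12 h library numbered 4. HSPA1A, HSPE1, RPL3 and ACO1 sit lower at 12 h of IFN. The mock 12 h library numbered 4 of HSPA1A is at 1445 TPM.

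CXCL11 and CXCL10, chemokines that recruit T cells through the receptor CXCR3, also rose. CXCL11 was at 7.08, 4.88 and 6.77 TPM at 8 h and 13.8, 15.3 and 8.98 TPM at 12 h, without overlap, and was listed at 0 in all 6 mock libraries. Its log2 difference was 0.90 (SE 0.17, adjusted p = 0.0079), which held in 5 of 6 fits without 1 library. The call was lost with a pseudocount of 0.1 and in the fit of the 6 IFN libraries alone. The SE takes in the mock libraries at 0, also in the fits without 1 library. It can therefore be too small for the IFN libraries. CXCL10 was at 8.54, 7.77 and 7.77 TPM at 8 h and 12.2, 13.2 and 10.7 TPM at 12 h (0.52, SE 0.13, adjusted p = 0.029). It was called in 2 of 6 fits without 1 library and after neither rescaling. CXCL10 was at 0 to 0.258 TPM in the 6 mock libraries, so the same limit holds, and its call was lost in the fit of the 6 IFN libraries alone. CCL5, another T cell chemokine, had 5.47, 7.90 and 8.27 TPM at 8 h and 17, 21.4 and 11.8 TPM at 12 h, again without overlap, with a difference of 1.09 (SE 0.37, adjusted p = 0.102), or 1.41 (adjusted p = 0.00819) without the libraries numbered 4. In all, 2 of 21 chemokines and cytokines tested rose and 0 fell, beside 2.83% and 0.697% of all genes.

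The neutrophil chemokines moved with 1 library. CXCL8 was at 458, 497 and 315 TPM at 8 h and 442, 474 and 821 TPM at 12 h (log2 difference 0.42, adjusted p = 0.565), and -0.06 without the libraries numbered 4. CXCL2 was at 80.4, 76.3 and 65.5 TPM at 8 h and 93.2, 94.2 and 239 TPM at 12 h. In both, the 12 h library numbered 4 was the highest of the 6. Mock 12 h number 4 was likewise high for CXCL2, at 362 TPM against 47.9 and 50.9 TPM in numbers 1 and 2.

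A wider set of IFN-responsive genes was taken from the siBOP1 libraries, which share no library with this comparison: 429 genes that IFN raised there by at least 1 on the log2 scale at both times. In siFLuc cells 32 of them rose between 8 h and 12 h of IFN, 1 fell, and 396 were not called, where 2.83% and 0.697% of all genes tested rose and fell. In numbers 1 and 2 alone 57 rose and 3 fell, against 3.18% and 1.72%. The median change was 0.16 under IFN and 0.10 under mock, against 0.09 and 0.06 over all genes, and 304 of 429 were above 0. The median under IFN was 0.05 after median-of-ratios rescaling, 0.07 without the 8 h library numbered 4 and 0.26 without the 8 h library numbered 1. Of the 32 that rose, 6 of 25 with a window held the ISRE core (24.0%), and of those not called 80 of 267. The gene that fell was FAM111A, a protease that restricts some viruses, from 56.4, 44.2 and 38.6 TPM to 36.9, 29.5 and 22.3 TPM (log2 difference -0.64, adjusted p = 0.0459, kept in 1 of 6 fits without 1 library). Of 35 genes that IFN lowered in siBOP1 cells at both times, 0 rose and 2 fell in siFLuc cells with IFN, beside 2.83% and 0.697% of all genes. Their median was -0.19 with IFN and -0.17 under mock, where 0 were called. The difference between treatments had a median of 0.06 over these 35.

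Among the 32 IFN-responsive genes that rose, CD38, an ectoenzyme that consumes NAD, was at 117, 100 and 91.8 TPM at 8 h and 179, 193 and 154 TPM at 12 h (0.76, SE 0.15, adjusted p = 0.00726). PDGFRL had 25.8, 27.1 and 27.2 TPM at 8 h and 44.4, 46.1 and 40.9 TPM at 12 h (0.69, SE 0.10, adjusted p = 0.00158). The 3 libraries of each time were tight for both genes and did not overlap. CD47, the signal that restrains phagocytes, NECTIN2, an adhesion molecule, CACNG6, IL4I1, an amino acid oxidase, and the HLA class I pseudogene HLA-H also held in 6 of 6 fits without 1 library, with differences of 0.49, 0.68, 1.07, 0.93 and 0.81. CD74, the invariant chain of class II molecules, rose from 0.764, 0.944 and 1.75 TPM to 3.34, 3.30 and 3.08 TPM, and CD40, a costimulatory receptor, from 14.75, 10.49 and 10.52 TPM to 19.6, 20.3 and 17.6 TPM. CD74 held in 1 of 6 such fits and CD40 in 3. Part of these rises was also seen under mock, where CD38, PDGFRL, NECTIN2 and IL4I1 differed by 0.45, 0.40, 0.52 and 0.41. CD47, CACNG6, HLA-H, CD74 and CD40 differed there by 0.04, 0.21, -0.16, 0.21 and 0.29. None of them was called under mock, but PDGFRL was without the libraries numbered 4 (limma adjusted p = 0.0354). The test of a different change under IFN and mock called none of them. The genes of this paragraph were named after their values were seen.

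**Figure D2:**
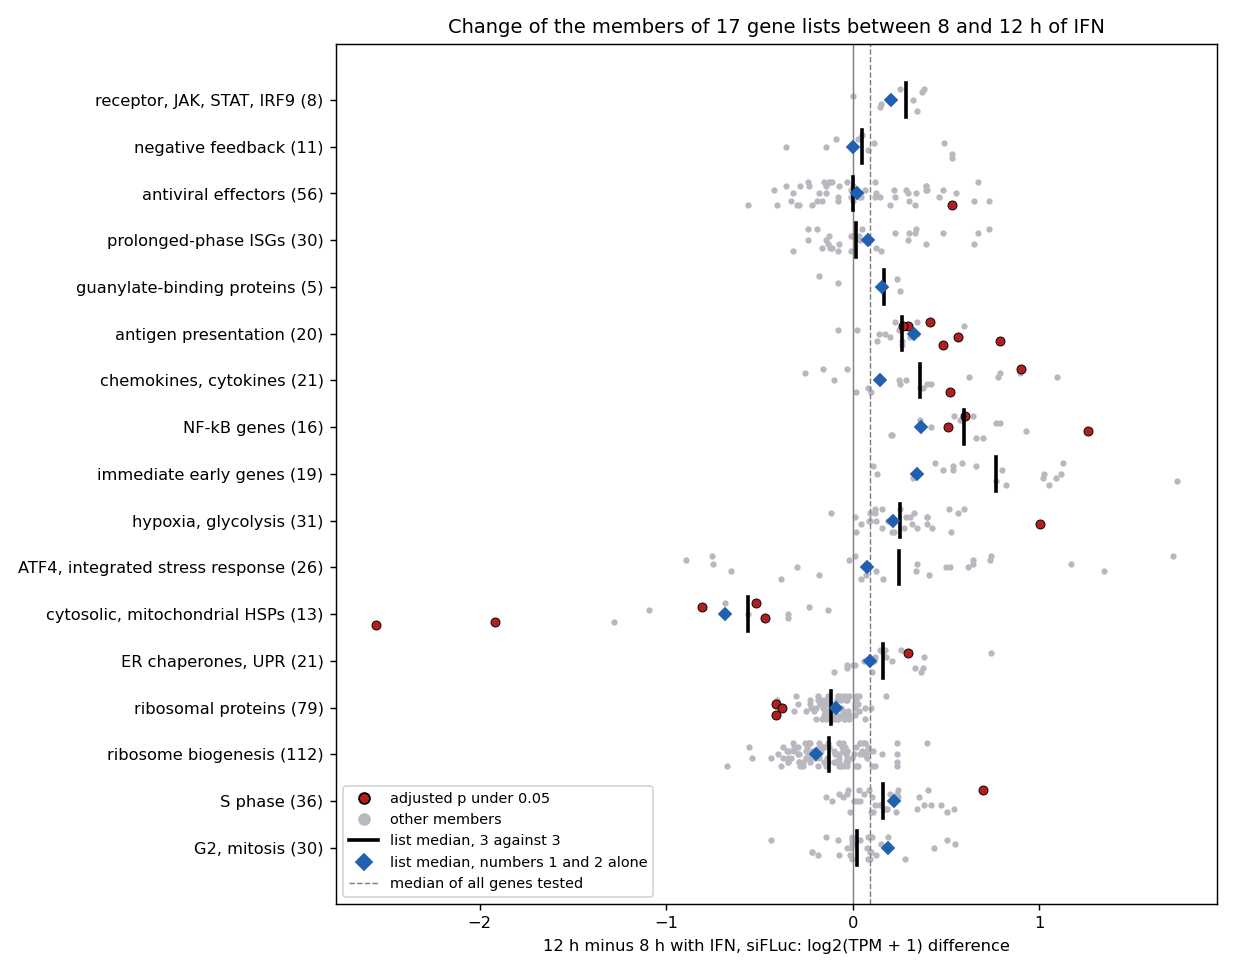
Each point is the log2(TPM + 1) difference of 1 gene, 12 h minus 8 h of IFN in siFLuc cells, for 17 lists (number of genes tested in brackets); red points passed adjusted p under 0.05, black bars are list medians and blue diamonds the medians without the libraries numbered 4. Heat shock proteins lie entirely below 0 (median -0.56), antigen presentation lies above 0 in 19 of 20 genes, antiviral effectors centre on 0, and the medians of NF-kB and immediate early genes fall from 0.59 to 0.36 and from 0.77 to 0.34 without number 4.

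Of 16 NF-kB subunits and targets tested, 3 rose, beside 2.83% of all genes. They were RELA, a subunit, TNIP1, an inhibitor of NF-kB signalling, and ICAM1, an adhesion molecule. The median was 0.59, but computed from each column number alone it was 0.21, 0.49 and 1.05 for numbers 1, 2 and 4. Under mock the median was 0.61 with 16 of 16 above 0 and 0 called, and 0.05 with 9 of 16 above 0 in numbers 1 and 2 alone. TNIP1 was even across libraries, at 199, 162 and 156 TPM at 8 h and 260, 277 and 245 TPM at 12 h (0.60, SE 0.11, adjusted p = 0.00707), and held in 6 of 6 fits without 1 library. RELA was at 71.0, 60.3 and 61.0 TPM at 8 h and 82.7, 94.5 and 98.1 TPM at 12 h (0.51, adjusted p = 0.0191, 2 of 6 fits). ICAM1 was at 10.7, 8.24 and 8.29 TPM at 8 h and 16.4, 20.0 and 37.0 TPM at 12 h (1.26, adjusted p = 0.0322, 2 of 6 fits), and in mock cells at 4.60 and 5.13 TPM at 12 h in numbers 1 and 2 and 16.5 TPM in number 4. NFKBIA, the inhibitor IkB alpha, was at 177 and 172 TPM at 12 h of IFN in numbers 1 and 2 and at 409 TPM in number 4 (adjusted p = 0.593).

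Immediate early genes were split by library in the same way. Of 19 tested, 0 rose and 0 fell. The median was 0.77, made of 0.28, 0.41 and 1.58 for column numbers 1, 2 and 4, and under mock it was 0.91. IER3, a regulator of cell survival, was at 132 and 133 TPM at 12 h of IFN in numbers 1 and 2 and at 454 TPM in number 4. JUNB, an AP-1 subunit, was at 101, 107 and 216 TPM. Without the libraries numbered 4 the medians of NF-kB and immediate early genes were 0.36 and 0.34, with 5 and 2 rises. In that fit 3.18% of all genes rose.

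Heat shock proteins, chaperones of the cytosol and mitochondrion, were lower at 12 h. Of 13 tested, 5 fell and 0 rose, beside 0.697% and 2.83% of all genes. The median was -0.56 against 0.09 over all genes, and 0 of 13 were above 0, beside 10095 of all 16062 genes. In numbers 1 and 2 alone, 12 of 13 fell (median -0.68), beside 1.72% of all genes. The summed level of the 13 genes dropped from 13295, 13054 and 11696 TPM at 8 h to 8066, 7965 and 8471 TPM at 12 h. All 12 h libraries lay below all 8 h libraries.

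HSPA1A (ENSG00000204389.10, chromosome 6, 31815464 to 31817946, plus strand) encodes the inducible HSP70. It was at 1566, 1441 and 1051 TPM at 8 h (1353 ± 269, SD, n = 3) and at 339, 338 and 380 TPM at 12 h (352 ± 24, SD, n = 3), a log2 difference of -1.92 (SE 0.36, adjusted p = 0.00649). HSPA1B, its near-identical neighbour, went from 727, 746 and 626 TPM to 109, 103 and 147 TPM (-2.55, SE 0.54, adjusted p = 0.0128). How reads were divided between these 2 copies is uncertain. HSPA1A held in 6 of 6 fits without 1 library and HSPA1B in 5, and both were called in the fit of the 6 libraries alone (adjusted p 0.0357 and 0.0109). HSPA8, the constitutive HSP70, fell from 2986, 3088 and 2891 TPM to 2054, 2042 and 2169 TPM (-0.52, SE 0.10, adjusted p = 0.00929), and HSPE1, the mitochondrial co-chaperonin, from 807, 902 and 827 TPM to 660, 631 and 541 TPM (-0.47, SE 0.08, adjusted p = 0.00231). Both held in 6 of 6 such fits. DNAJA1, an HSP40 co-chaperone, fell from 759, 729 and 678 TPM to 389, 411 and 435 TPM (-0.81, adjusted p = 0.026), but its call was lost in each of the 6 fits without 1 library (adjusted p 0.059 to 0.0875).

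In mock cells 2 of the 3 libraries at 12 h were also lower. The summed level of the list there was 12143, 11548 and 10206 TPM at 8 h and 8184, 8054 and 15264 TPM at 12 h, where number 4 was the highest of the 6. HSPA1A at 12 h of mock was at 348, 375 and 1445 TPM. The median of the list under mock was -0.17 with 0 calls. Without the libraries numbered 4 it was -0.40 with 9 of 13 called lower, beside 0.741% of all genes. The test of a different change under IFN and mock did not call any of the 13 (HSPA1A -1.21, adjusted p = 1, and -0.52, adjusted p = 0.375, without the libraries numbered 4). In siBOP1 cells with IFN, 8 of 13 fell and 0 rose (median -0.73), beside 0.511% and 2.45% of all genes. Chaperones of the endoplasmic reticulum and unfolded protein response genes did not share the fall in siFLuc cells with IFN. Of 21 tested, 1 rose (CALR) and 0 fell, beside 2.83% and 0.697% of all genes, and the median was 0.16.

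**Figure D3:**
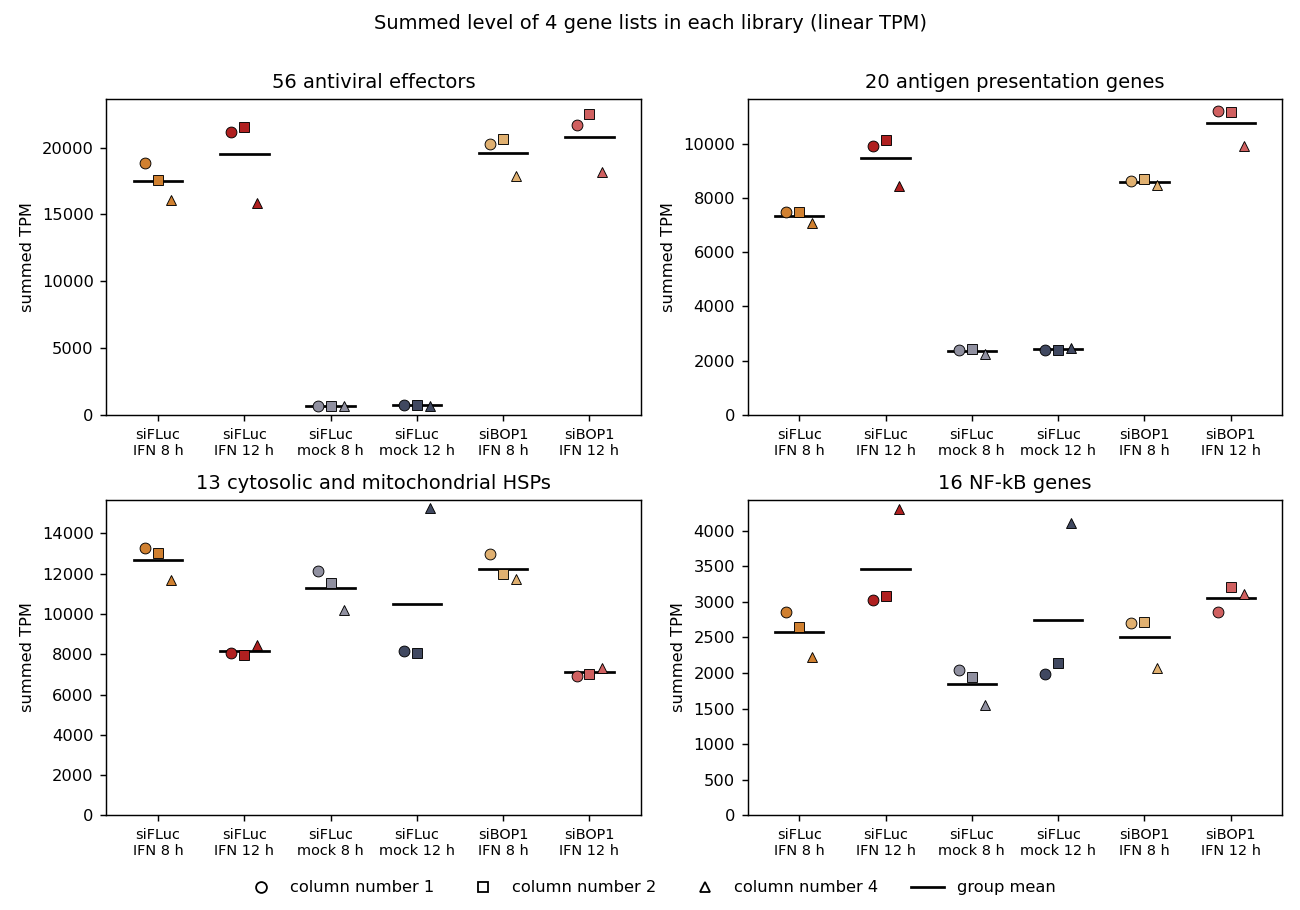
Summed TPM (linear axis) of 4 gene lists in each library of the siFLuc groups and of the siBOP1 groups with IFN; points are libraries, shaped by column number, and lines are group means. Antigen presentation separates 12 h from 8 h of IFN in both siRNAs, heat shock proteins drop to between 7965 and 8471 TPM at 12 h in siFLuc cells with IFN, and the mock 12 h library numbered 4 stands at 15264 TPM.

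Among ribosomal protein transcripts, RPL3, RPL5 and RPL7 fell. These were 3 of 79 tested, where 0.697% of all genes fell, and 0 rose. The median of the list was -0.11 under IFN and -0.02 under mock, but from each column number alone it was 0.01, -0.20 and -0.15 for numbers 1, 2 and 4, and -0.05 without the 8 h library numbered 2. The summed level overlapped between the times, at 150291, 174468 and 158317 TPM at 8 h and 153761, 152441 and 143305 TPM at 12 h. RPL3, a protein near the peptidyl transferase centre of the large subunit, was at 1636, 1778 and 1510 TPM at 8 h (1641 ± 134, SD, n = 3) and 1270, 1202 and 1224 TPM at 12 h (1232 ± 34.5, SD, n = 3), with a difference of -0.41 (SE 0.08, adjusted p = 0.00929). RPL7 fell from 1409, 1485 and 1456 TPM to 1085, 1058 and 1127 TPM (-0.41, adjusted p = 0.00654), and RPL5, which carries 5S rRNA, from 808, 896 and 889 TPM to 651, 634 and 713 TPM (-0.38, adjusted p = 0.0153). None of the 3 pairs of groups overlapped. RPL7 held in 6 of 6 fits without 1 library, RPL3 in 5 and RPL5 in 2. Under mock the 3 genes differed by 0.01, -0.01 and -0.03, and the test of the difference between treatments gave adjusted p of 0.9, 0.9 and 1. These genes have many processed pseudogenes, so their values depend on how shared reads were assigned.

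Ribosome biogenesis factors were not called: of 112 tested, 0 rose and 0 fell, with a median of -0.13 and 27 above 0. Without the libraries numbered 4, 7 fell, beside 1.72% of all genes. Among them were NMD3, the export adaptor of the large subunit (-0.51, adjusted p = 0.0183), and RIOK1, a kinase of small subunit maturation (-0.79, adjusted p = 0.0129). BOP1 itself was at 55.98, 47.98 and 64.4 TPM at 8 h and 44.0, 32.4 and 61.6 TPM at 12 h (-0.32, SE 0.18, adjusted p = 0.34), with overlapping groups. NPM1, a nucleolar chaperone and the highest of the list by TPM, had a difference of -0.22 (adjusted p = 0.327). Among 16 host genes of small nucleolar RNAs 0 were called, and SNHG9, which is outside that list, fell from 27.1, 38.1 and 31.3 TPM to 16.3, 12.8 and 14.7 TPM (-1.08, SE 0.17, adjusted p = 0.00191, 6 of 6 fits without 1 library).

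Several amino acid and glycolysis genes were called without the libraries numbered 4 and not with them. ASNS, asparagine synthetase and a target of ATF4, was at 114, 129 and 122 TPM at 8 h and 56.7, 43.7 and 110 TPM at 12 h, with a log2 difference of -0.89 (adjusted p = 0.105) and -1.27 (adjusted p = 0.000688) without the libraries numbered 4. PHGDH and PSAT1, enzymes of serine synthesis, had differences of -1.16 and -1.04 without those libraries (adjusted p 0.00309 and 0.00228) and were not called with them. Of 26 genes of the integrated stress response, 0 were called with all libraries, while 2 rose and 5 fell without number 4, beside 3.18% and 1.72% of all genes. Among 31 hypoxia and glycolysis genes, 1 rose with all libraries and 8 without number 4, beside 2.83% and 3.18% of all genes. In both fits 30 of 31 were above 0, as were 10095 and 9217 of all 16062 genes. Under mock 25 of 31 were above 0 with 0 called. Without the libraries numbered 4 it was 18 of 31 with 2 rises, beside 0.897% of all genes. The 1 called with all libraries of IFN was MXI1, a MYC antagonist, from 9.73, 9.38 and 6.93 TPM to 19.0, 20.9 and 15.2 TPM (1.00, SE 0.26, adjusted p = 0.0347, 1 of 6 fits without 1 library). PGAM1, a glycolytic mutase, was at 556, 556 and 490 TPM at 8 h and 788, 829 and 535 TPM at 12 h.

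Of 36 S phase genes 1 rose, beside 2.83% of all genes. It was CCNE1, the G1 to S cyclin (0.70, adjusted p = 0.0497), which held in 1 of 6 fits without 1 library and after neither rescaling. Of 30 G2 and mitosis genes 0 were called with a median of 0.02. That median was 0.20, 0.10 and -0.29 from column numbers 1, 2 and 4 alone, and in numbers 1 and 2 together 2 genes rose, the median was 0.19 and 27 of 30 were above 0. Under mock the medians of the S phase and mitotic lists were 0.33 and 0.37 with 0 calls. In numbers 1 and 2 alone the mock medians were 0.435 and 0.463, with 7 and 2 rises, beside 0.897% of all genes. All 36 and all 30 genes lay above 0 there. With IFN, 3 S phase genes rose in numbers 1 and 2 alone, with a median of 0.22. In that fit 3.18% of all genes rose, also beside the 2 mitotic rises. The difference between treatments had a median of -0.29 over the 30 mitotic genes, 1 of which was above 0, and 0 of them passed the test. Of 38 p53 targets tested, 1 fell, TRIAP1, a small inhibitor of apoptosis (-0.53, adjusted p = 0.0227), and 0 rose, beside 0.697% and 2.83% of all genes.

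By the rule for named genes, the largest rises were of genes at low levels. YPEL3 (ENSG00000090238.12, chromosome 16, 30092314 to 30096915, minus strand), linked to growth arrest, was at 2.33, 2.86 and 2.64 TPM at 8 h and 7.02, 10.8 and 9.06 TPM at 12 h, a log2 difference of 1.45 (SE 0.19, adjusted p = 0.000459). It rose under mock as well, from 4.35, 3.31 and 3.09 TPM to 9.27, 11.6 and 6.86 TPM (1.14, adjusted p = 0.009). ULK1, a kinase that starts autophagy, went from 10.7, 7.69 and 5.72 TPM to 19.2, 18.8 and 29.9 TPM (1.39, adjusted p = 0.00325), and LIMD2 from 3.95, 3.86 and 4.10 TPM to 9.54, 12.0 and 11.8 TPM (1.28, adjusted p = 0.00231). These 3 held in 6 of 6 fits without 1 library. TXNIP, the thioredoxin inhibitor that responds to glucose, went from 4.05, 1.90 and 0.923 TPM to 6.70, 6.62 and 13.8 TPM (1.65, adjusted p = 0.0415, 1 of 6 fits). The other largest rises were FAM86B3P (1.68), SLC43A2, an amino acid transporter (1.58), ICAM1, HES7, a transcriptional repressor (1.20), BCORL1 (1.18), FAM86B1 (1.17), GLIS3 (1.16) and EPS8L3 (1.15). HES7 held in 1 of 6 fits and EPS8L3 in 2. FAM86B3P and FAM86B1 are close copies.

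Among the largest falls, several were small RNAs or copies of other genes. After HSPA1B came RNVU1-31, a U1 RNA variant, from 13.1, 18.7 and 35.9 TPM to 3.19, 1.87 and 5.72 TPM (-2.33, adjusted p = 0.00587), SERF1A (-2.08, adjusted p = 0.0321), which has a duplicate copy, and the ribosomal protein pseudogenes RPL23P8 (-2.01), RPL15P7 (-1.81) and RPL9P7 (-1.56). SERF1A and RPL15P7 held in 1 of 6 fits without 1 library, RPL23P8 and RPL9P7 in 2. U1 RNA is not polyadenylated, and its level in such libraries is uncertain. Among protein-coding genes, BEX2 fell from 11.6, 11.4 and 6.83 TPM to 4.121, 1.999 and 3.429 TPM (-1.39, adjusted p = 0.00695), SNORC by 1.29 and RBM12, an RNA-binding protein, from 59.9, 53.6 and 50.5 TPM to 30.1, 30.9 and 16.1 TPM (-1.11, adjusted p = 0.0205, 2 of 6 fits). LINC03011 had -1.07. Pseudogenes were 17.9% of the genes that fell and 1.98% of those that rose, against 8.17% of all genes tested, but in numbers 1 and 2 alone they were 6.88% of the falls and 2.55% of the rises. Transcripts of genes that rose had a median length of 3615.5 bases and GC content of 55.5%, against 3072 bases and 48.4% over all genes, and those that fell 2108 bases and 47.7%. In numbers 1 and 2 alone the median length was 3100 bases for rises and 2666.5 for falls, with GC contents of 55% and 47.9%.

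**Figure D4:**
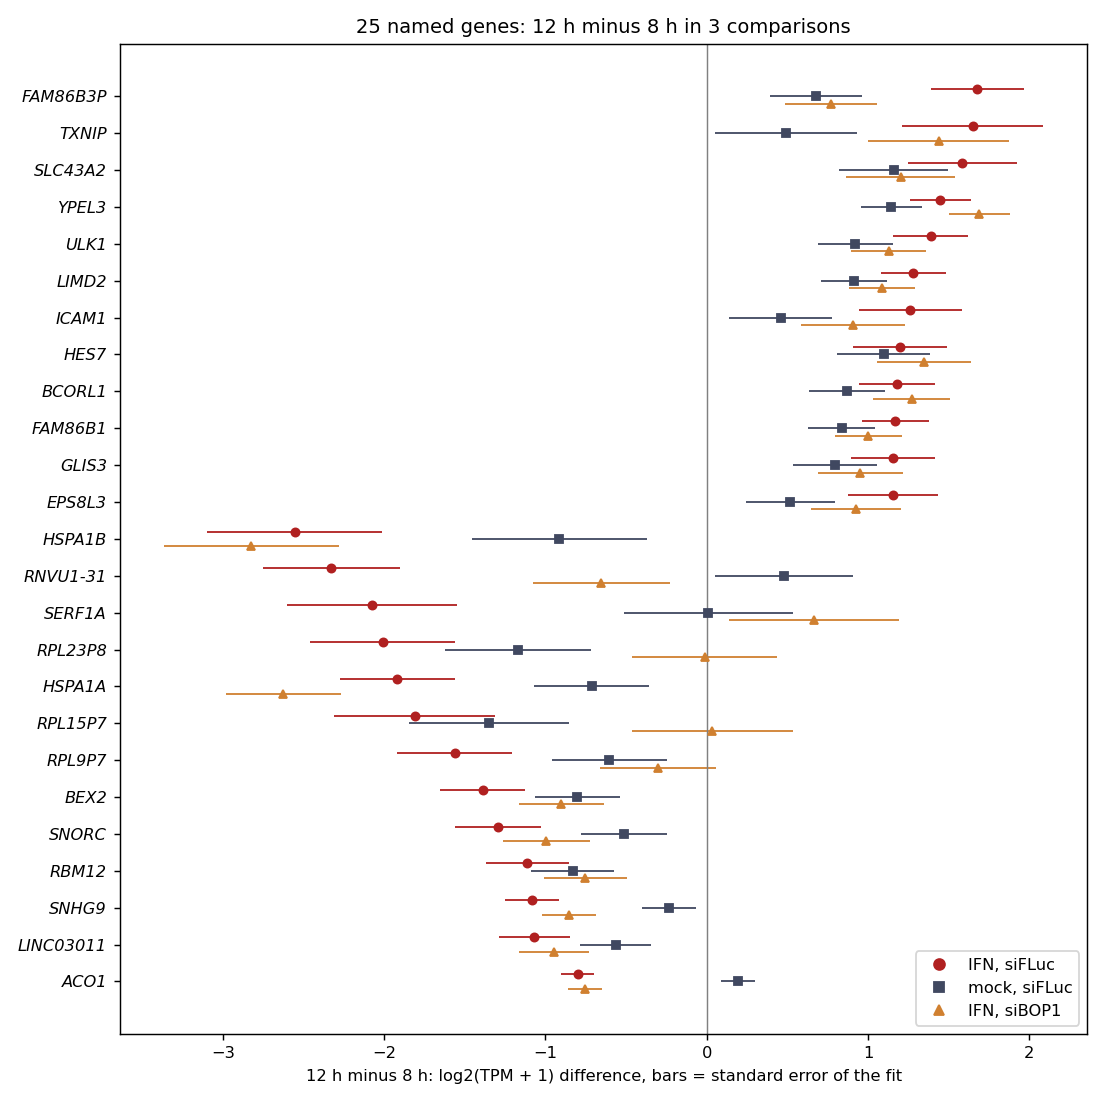
Log2(TPM + 1) difference, 12 h minus 8 h, of the 12 largest rises, the 12 largest falls and ACO1 in 3 comparisons; bars are standard errors of the fit. All 12 rises lie above 0 in mock and siBOP1 cells too, SERF1A and the pseudogenes RPL23P8 and RPL15P7 lie near or above 0 in siBOP1 cells, and ACO1 falls with IFN in both siRNAs and not under mock.

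ACO1 changed differently under IFN and mock. The interaction of time and IFN called 0.00623% of genes, which is ACO1 alone (ENSG00000122729.19, chromosome 9, 32384603 to 32454769, plus strand). ACO1 encodes cytosolic aconitase, which becomes the iron regulatory protein IRP1 when it lacks its iron-sulphur cluster. With IFN it was at 24.5, 21.5 and 20.2 TPM at 8 h (22.1 ± 2.21, SD, n = 3) and 12.5, 11.9 and 12.2 TPM at 12 h (12.2 ± 0.29, SD, n = 3). Under mock it was at 58.0, 51.5 and 44.6 TPM at 8 h and 61.9, 59.6 and 54.6 TPM at 12 h. Every IFN library lay below every mock library, and the 12 h IFN libraries lay below those of 8 h. The log2 changes were -0.80 (SE 0.10, adjusted p = 0.000459) with IFN and 0.20 (adjusted p = 0.448) under mock, and their difference was -0.996 (SE 0.15, adjusted p = 0.0221). The interaction held in 3 of 12 fits without 1 library (adjusted p 0.00953 to 0.133) and after neither rescaling. In siBOP1 cells ACO1 fell by 0.76 with IFN (adjusted p = 0.000527).

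Without the libraries numbered 4 the interaction called 7 genes (0.0436%). Besides ACO1 they included TNFRSF10D, a decoy receptor for TRAIL (1.43, adjusted p = 0.00519), BIRC3, an inhibitor of apoptosis (0.85, adjusted p = 0.0113), C15orf48 (1.14, adjusted p = 0.0313) and the small RNAs RNVU1-31 (-3.00) and VTRNA1-2 (3.29). TNFRSF10D was at 3.64, 3.56 and 3.20 TPM at 8 h and 4.43, 4.37 and 4.79 TPM at 12 h of IFN. Under mock it was at 47.3, 44.4 and 22.5 TPM at 8 h and 20.3, 18.4 and 12.3 TPM at 12 h, so the difference lay in the mock libraries. BIRC3 was at 81.6 and 87.2 TPM at 8 h and 113 and 121 TPM at 12 h of IFN in numbers 1 and 2, and at 36.5 and 37.3 TPM and 28 and 28.15 TPM under mock.

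The same interval was compared in siBOP1 cells with IFN, which share no library with the siFLuc cells but share the variance estimate of the fit. There 393 genes rose and 82 fell (2.45% and 0.511%). Of the 455 genes that rose in siFLuc cells, 204 rose in siBOP1 cells too, which is 44.8% of the first list and 51.9% of the second, and 44 genes fell in both, 39.3% and 53.7%. All 455 rises and 107 of the 112 falls had the same sign in siBOP1 cells, against 82.1% of all genes above 0 and 68.1% of all genes below 0 in siFLuc cells. In mock siFLuc cells 433 of the 455 (95.2%, median 0.35 against 0.66 with IFN) and 105 of the 112 (93.8%, median -0.25 against -0.57) had the same sign, against 75.3% and 64.5% over all genes. B2M (0.38, adjusted p = 0.00998), CXCL11 (0.70, adjusted p = 0.0345), CD38 (0.69, adjusted p = 0.0139), HSPA1A (-2.62, adjusted p = 0.000471) and RPL3 (-0.44, adjusted p = 0.00529) were called in siBOP1 cells in the same direction. HLA-B (0.49, adjusted p = 0.22) and CXCL10 (0.34, adjusted p = 0.157) were not. The test of a different time change in the 2 siRNAs called 0 genes in limma, with 292 genes at an unadjusted p under 0.05, and 0 without the libraries numbered 4, with 708.

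**Figure D5:**
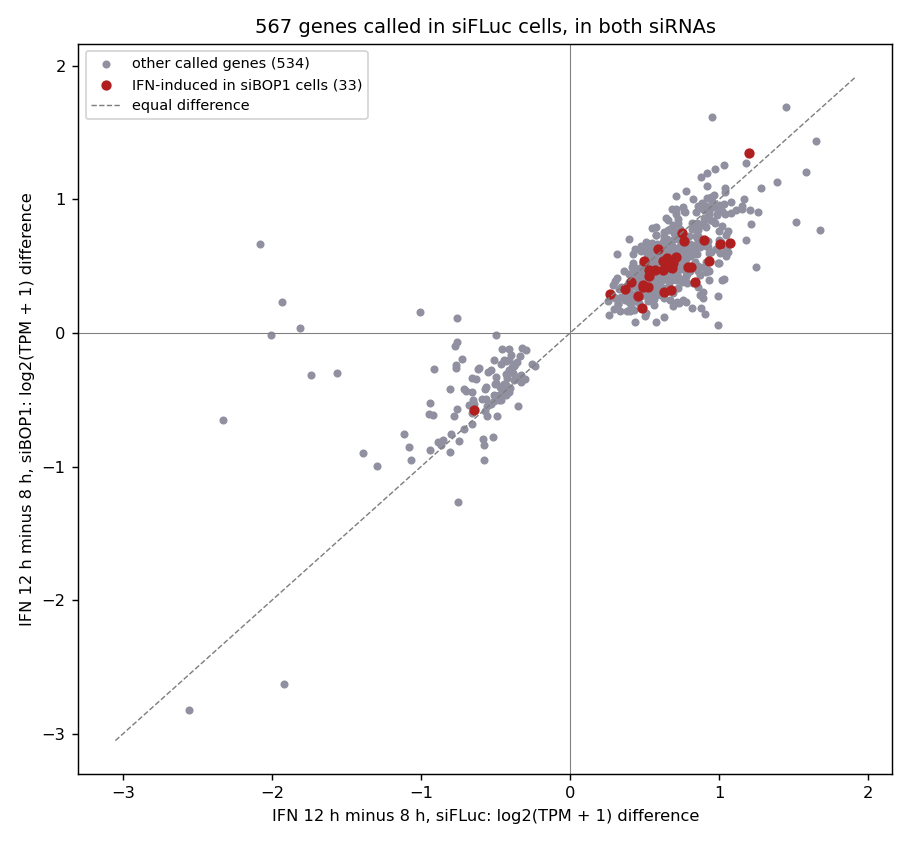
Log2(TPM + 1) difference, 12 h minus 8 h of IFN, in siFLuc cells (horizontal) and siBOP1 cells (vertical) for the 567 genes called in siFLuc cells; red points are the 33 that IFN raised in siBOP1 cells at both times, and the dashed line marks equal differences. All 455 rises lie above 0 on both axes, and HSPA1A and HSPA1B lie lowest on the siBOP1 axis.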

How the data were processed

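RNA of 24 A549 libraries, 3 in each of 8 groups, was sequenced after poly(A) selection with a stranded kit, per the labels' protocols. The authors deposited 1 table of TPM with 60609 gene rows. The aligner, build and annotation are not given in the sources used here. TPM keeps no depth, so no counting error can be given. Each column was tied to its group by its name: 16 also match a labelled replicate, and the 8 numbered 4 carry a group only.

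The test, limma 3.58.1 (R 4.3.3) on log2(TPM + 1), took the 16062 genes that reached 1 TPM in 3 or more libraries, with 1 mean per group over all 24 libraries, a trended prior, no block and Benjamini-Hochberg adjustment at 0.05 over all genes. Fold changes are on that scale and are too small for genes at low levels. Symbols were matched for 60340 rows, coordinates come from GENCODE 29 (GRCh38), and promoters from RefSeq. Named genes are the 12 largest rises and 12 largest falls past the threshold whose groups do not overlap and whose higher group has a mean of at least 5 TPM, the largest interaction calls, and a fixed list of interferon genes; members called in a list and genes chosen after their values were seen were added. The comparison, its members and the gene lists were chosen with earlier results of these data known. On simulated data for this comparison (16062 genes, 50 changed at each size) 30% of changes of 0.5, 82% of 1 and 98% of 2 were recovered, with 4 false calls. The simulation drew independent normal noise for each gene and library and changed no genes at low levels. It held no shift shared across a library, such as that of the 12 h library numbered 4, so its rates do not carry over to these data. Alternatives were the pseudocount, the filter, rescaling, the fit's samples and prior, a replicate block, and leaving out each library. Some genes that count in the totals are not reported here by name.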

Additional observations from a re-analysis of the deposited data

Results flagged for a closer look

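ACO1 was the 1 gene for which the change from 8 h to 12 h differed between IFN and mock by a test of the difference itself. The difference between the log2 changes was -0.996 (adjusted p = 0.0221, limma), with lower levels at 12 h of IFN in 3 of 3 libraries. Across the fits that left out 1 of the 12 siFLuc libraries it was -1.087 to -0.9003, and 3 of 12 kept the call. The call was also lost after median-of-ratios rescaling, after quantile normalization, without mitochondrial genes and in a fit of the compared groups alone.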

How the results depend on the processing

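The counts of called genes depended on the setting. The 12 largest rises and 12 largest falls named above kept their direction in each setting run, including each fit without 1 library (FAM86B3P, HES7 and SERF1A were not tested under the filter at a mean of 5 TPM). The naming rule required groups that do not overlap, which fixed that direction in advance in every fit without rescaling. Only the rescalings and the removal of mitochondrial genes could have changed it. For IFN in siFLuc cells, testing every gene with a value above 0 gave 299 rises, median-of-ratios rescaling 326 falls, quantile normalization 261 rises and 268 falls, a fit of the compared groups alone 1 and 3, the libraries numbered 1 and 2 alone 276 falls, and leaving out 1 library 129 to 507 rises and 34 to 88 falls. In the same order, mock cells gave 9 falls, 12 falls, 10 falls, 1 rise and 0 falls, 144 rises and 119 falls, and 6 to 37 rises and 2 to 20 falls. The interaction gave 2 higher genes with no filter, 0 lower after either rescaling or without mitochondrial genes, 1 higher in the compared groups alone, 5 higher and 2 lower in numbers 1 and 2 alone, and 0 higher and 0 to 1 lower without 1 library. In siBOP1 cells the counts were 253 rises with no filter, 325 falls after median-of-ratios rescaling, 214 and 165 after quantile normalization, 5 and 7 in the compared groups alone, 333 falls in numbers 1 and 2 alone, and 93 to 304 rises and 20 to 108 falls without 1 library. The test between the siRNAs gave 1 higher gene with no filter. The cause was not tested, except that fewer libraries or more genes tested enter some fits by construction.

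Same-numbered libraries of 8 h and 12 h of IFN had correlations of 0.0423, 0.0821 and 0.155 of their deviations from the group means, and other pairs -0.147 to 0.072. Under mock the values were 0.0775, 0.153 and 0.196 for same numbers, and -0.182 to 0.104 for other pairs. The main fit did not treat the numbers as pairs, and whether a number marks a shared batch was not tested. With a replicate block on the column number the counts were 973 rises and 297 falls with IFN, 202 and 49 under mock, 1 higher gene for the interaction and 884 and 249 in siBOP1 cells, and with a replicate block within each time the interaction gave 2 and 2. With IFN, numbers 2 and 4 at 8 h correlated best with their own number and number 1 with number 2 (0.072). Under mock each 8 h library correlated best with its own number.

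Genes without a call changed sign as follows. After median-of-ratios rescaling IFIT2 was at -0.07597, SOCS1 at -0.05283, IRF7 at -0.07639 and IRF9 at -0.1057. After quantile normalization OAS1 was at 0.001297 and SOCS1 at -0.07518, and without mitochondrial genes IRF9 was at -0.001947. In numbers 1 and 2 alone IFIT1 was at 0.02606, IFIT3 at 0.1528, OAS1 at 0.08183, IRF7 at -0.03582 and IRF9 at -0.04427. Without 1 library the ranges were -0.5407 to 0.07801 for IFIT1, -0.1577 to 0.4029 for IFIT2, -0.3931 to 0.1985 for IFIT3, -0.0897 to 0.1446 for OAS1, -0.1346 to 0.3529 for SOCS1, -0.01296 to 0.07676 for IRF7, -0.05127 to 0.07627 for IRF9 and -0.4656 to 0.2393 for ODC1. Depth is unknown, so what it limits cannot be stated.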
